A study of Arabidopsis thaliana with 12 samples.

Results

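The flavonoid and anthocyanin enzyme genes of Arabidopsis thaliana described here are 10 loci taken by their identifiers from a table of 34262 genes. They cover the pathway from chalcone synthase to the transport of the finished pigment, and all 10 were among the 22351 genes that passed the filter on low counts. The early steps were TT4 (AT5G13930), TT5 (AT3G55120), F3H (AT3G51240), TT7 (AT5G07990) and FLS1 (AT5G08640). The late steps were DFR (AT5G42800), LDOX (AT4G22880), UF3GT (AT5G54060), UGT75C1 (AT4G14090) and TT19 (AT5G17220, named GSTF12 in the reference). Transcripts were measured by RNA sequencing in rosette leaves of untreated plants, 3 weeks old and grown in soil under long days. The 4 genotypes had 3 libraries each and all were in the Col-0 background. Besides wild-type Col-0 they were ka120, ka120 pad4 and ka120 ndr1, the last pair double mutants, so every mutant group carried ka120. The sources used here do not name the alleles, and single pad4 and ndr1 mutants were not analysed here. By its title, the series asked how KA120 acts in effector-triggered immunity. PAD4 and NDR1 are signalling components on which different classes of plant immune receptors depend. The labels do not say whether the 3 libraries of a group were different plants or cultures, so the p-values here reflect only how far these samples spread.

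Flavonoids are made from coumaroyl-CoA, the product of the general phenylpropanoid pathway. Chalcone synthase, chalcone isomerase and the hydroxylases F3H and F3′H give dihydroflavonols, from which FLS1 makes flavonols and DFR opens the branch to anthocyanins. LDOX then forms the anthocyanidin, sugar transferases stabilise it, and the glutathione transferase TT19 is needed to bring it into the vacuole. In Arabidopsis the MYB factors MYB11, MYB12 and MYB111 switch on the early genes, while complexes of an R2R3-MYB, a bHLH and the WD40 protein TTG1 switch on the late genes, and MYBL2 represses them. In leaves the pathway is known for its response to light, sucrose and stress, and its products absorb ultraviolet light.

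Total counts per library ranged from 68436911 to 85884840, and single libraries held between 152 and 34789 counts of a given enzyme gene. Transcripts of the mutated loci were checked first. KA120 (AT3G08960, a locus taken from background knowledge) was at 24.2 to 33.0 CPM, the normalised count scaled to the effective library size, in Col-0 and at 3.64 to 6.03 CPM in the 9 mutant libraries. NDR1 was at 0 to 0.166 CPM in ka120 ndr1, against 4.79 to 14.5 CPM in the other libraries. PAD4 was at 7.73 to 19.1 CPM in ka120 pad4, below the 54.6 to 107 CPM of ka120 but above the 4.60 to 5.54 CPM of Col-0 (log2 1.303 ± 0.32, edgeR adjusted p = 0.00625). The position of the pad4 lesion is not known here, so its transcript level is no check of that label. Marker genes of leaf mesophyll, 5 in number, summed to between 62805 and 66874 CPM in Col-0, 32576 and 37348 in ka120, 38863 and 48110 in ka120 pad4 and 38319 and 40396 in ka120 ndr1. All 5 fell in ka120 against Col-0, where 27.0% of all genes fell, and 4 of them rose in ka120 pad4 against ka120, where 9.83% rose. Epidermis markers, 4 in number, summed to 1046 to 1167, 839 to 1010.5, 898 to 1006 and 1041 to 1081 CPM in the same order of genotypes. The 5 floral markers summed to 4.64 to 5.97, 7.92 to 10.8, 10.7 to 11.9 and 8.74 to 10.5 CPM, and the 5 root markers to 178 to 214, 138 to 199, 168 to 193 and 180 to 219.5 CPM. In ka120 against Col-0, 2 epidermis markers fell, and 3 floral markers and 1 root marker rose, where 28.0% of all genes rose. That root marker, WOX5, was near the floor, averaging 0.022 CPM in Col-0 and 0.300 in ka120. Most of the root sum came from BGLU23, which averaged 144 CPM in Col-0 and 111 in ka120 and was not called. In ka120 pad4 against ka120, 1 floral marker rose and 0 epidermis or root markers were called. The 5 seed and seed coat markers summed to at most 2.24 CPM in any library, and BAN, an enzyme gene of the seed coat, was at 0 in Col-0, ka120 and ka120 pad4. CRU3 and SESA1 were also at 0 in Col-0, ka120 and ka120 ndr1, OLEO1 in Col-0 and ka120 ndr1, and CRA1 in ka120 ndr1. The part of these markers in the results below was not tested. In whole leaves, fewer cells that make flavonoids and less RNA per such cell cannot be told apart.

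The promoters are shown because some of the early and some of the late members held a letter motif that the choice of genes did not use. The 250 bases before each annotated gene start were read from the TAIR10.1 reference, and 4 of the 10 held the G-box CACGTG, against 6.49% of 27443 protein-coding genes searched the same way. These are the windows of TT4 (chr5:4488226-4488475, plus strand), F3H (chr3:19024942-19025191, plus strand), DFR (chr5:17166033-17166282, minus strand) and UF3GT (chr5:21938397-21938646, minus strand). They are printed 5′ to 3′ in the direction of the gene, with CACGTG and, in DFR, ACCAAAC in capitals.
TT4: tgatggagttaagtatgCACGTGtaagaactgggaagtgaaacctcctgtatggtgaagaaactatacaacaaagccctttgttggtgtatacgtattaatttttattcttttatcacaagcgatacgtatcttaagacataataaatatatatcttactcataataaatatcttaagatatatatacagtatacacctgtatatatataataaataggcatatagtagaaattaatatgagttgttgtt
F3H: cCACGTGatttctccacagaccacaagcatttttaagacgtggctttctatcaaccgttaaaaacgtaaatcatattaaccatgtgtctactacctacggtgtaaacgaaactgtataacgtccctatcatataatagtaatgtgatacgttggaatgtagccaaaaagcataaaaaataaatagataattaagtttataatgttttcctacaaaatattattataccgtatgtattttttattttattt
DFR: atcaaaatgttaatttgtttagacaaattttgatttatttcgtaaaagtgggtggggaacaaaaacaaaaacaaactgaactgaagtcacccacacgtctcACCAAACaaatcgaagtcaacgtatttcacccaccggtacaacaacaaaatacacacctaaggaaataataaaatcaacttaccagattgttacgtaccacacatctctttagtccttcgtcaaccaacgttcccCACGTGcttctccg
UF3GT: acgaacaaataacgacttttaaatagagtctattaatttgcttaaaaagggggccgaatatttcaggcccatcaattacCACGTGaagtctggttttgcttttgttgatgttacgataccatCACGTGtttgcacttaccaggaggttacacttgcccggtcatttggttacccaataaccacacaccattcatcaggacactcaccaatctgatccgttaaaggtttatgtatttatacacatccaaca
UF3GT held the motif at 2 places. The F3H window overlaps AT3G51238, a noncoding gene annotated on the opposite strand. In DFR it ended 9 bases before the annotated start and in TT4 228 bases before it. Of the letters of MYB-type sites, read on both strands, ACCTACC was in 0 of the 10 windows (1.16% of all), ACCAACC in that of UGT75C1 (2.69%), ACCTAAC in 0 (2.46%) and ACCAAAC in those of FLS1 and DFR (8.29%). The shorter ACGT, which every CACGTG contains, was in 4 windows against 44.1%, TATAAA in 5 against 47.3%, and the W-box letters TTGACC or TTGACT in 3 (DFR, LDOX and TT19) against 28.4%. Of the 4 genes with a G-box, 3 rose in ka120 pad4 against ka120 and UF3GT did not pass the test, and of the 6 without one, TT5, FLS1, LDOX and TT19 rose, as given below. A match is a run of letters in a short window, and it describes neither binding nor its absence.

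The genes themselves lie on chromosomes 3, 4 and 5 in TAIR10.1. TT4 spans chr5:4488476-4490264 with 2 exons, TT5 chr3:20430059-20431597 with 4, F3H chr3:19025192-19026872 with 3, TT7 chr5:2560328-2563137 with 4 and FLS1 chr5:2803833-2805606 with 3. DFR spans chr5:17164093-17166032 with 6 exons, LDOX chr4:12004726-12006209 with 2, UF3GT chr5:21936746-21938396 and UGT75C1 chr4:8122188-8123835 with 1 each, and TT19 chr5:5658416-5659661 with 3. TT4, F3H, UGT75C1 and TT19 overlap an annotated gene on the opposite strand. The libraries were strand-specific per the labels, but no source used here gives the strand setting of the counting, so reads in those overlaps could be shared between partners. The partner of TT4, AT5G13940, averaged at most 0.0765 CPM in any genotype. The partner of TT19 is PSY, phytoene synthase, whose level was far above that of TT19, at 470 ± 30.3 CPM (SD, n = 3) in Col-0, 312 ± 52.3 in ka120, 328 ± 13.3 with pad4 added and 425 ± 38.3 with ndr1 added. AT4G14100, a partner of UGT75C1, averaged 23.7 ± 0.94, 18.8 ± 1.17, 22.8 ± 2.74 and 21.2 ± 1.69 CPM in the same order, above UGT75C1 in each genotype, and the other partner, AT4G06175, at most 1.23 CPM. PSY was at 0.07 ± 0.11 and AT4G14100 at 0.28 ± 0.10 (log2 change) in ka120 pad4 against ka120, neither past the threshold. How many reads the overlaps share was not tested. The noncoding partner of F3H, AT3G51238, averaged 14.6 ± 1.67 CPM (SD, n = 3) in Col-0, 11.5 ± 1.29 in ka120, 24.8 ± 2.21 with pad4 added and 13.8 ± 2.40 with ndr1 added. Its log2 change in ka120 pad4 against ka120 was 1.11 ± 0.14 (edgeR, adjusted p = 0.000952), close to that of F3H below.

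**Figure D1:**
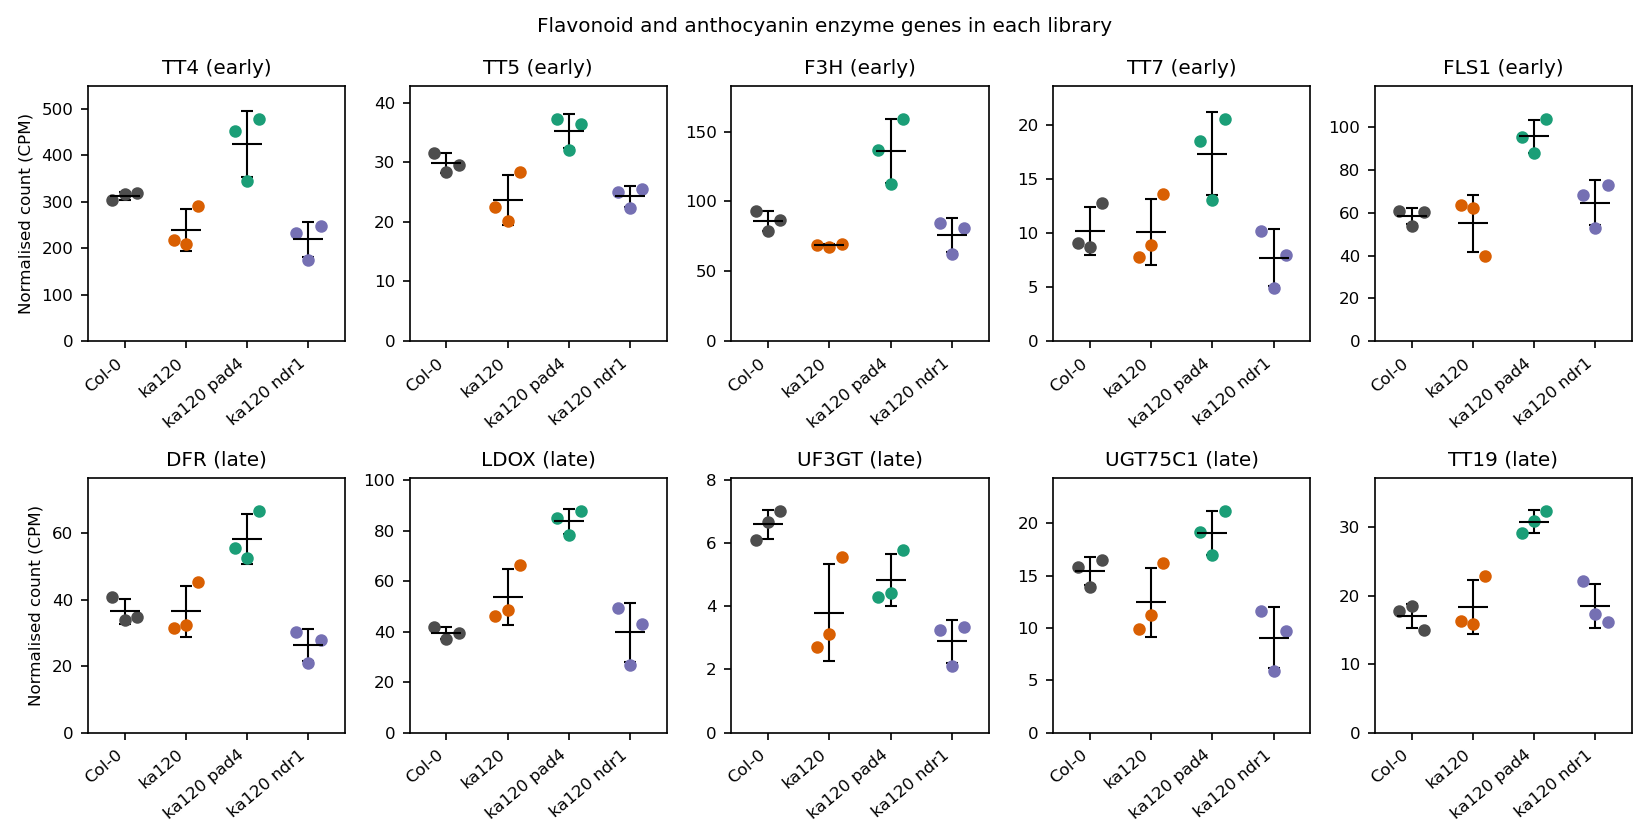
Normalised count (CPM, linear axes from 0) of each enzyme gene in every library, by genotype, with the mean and SD of 3 libraries as bars; early steps are above and late steps below. The ka120 pad4 libraries are highest for 9 of the 10 genes by mean, and Col-0 is highest for UF3GT.

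The entry enzyme, TT4, chalcone synthase, was at 303, 315 and 318 CPM in Col-0, at 217, 208 and 291 in ka120, at 452, 344 and 477 in ka120 pad4, and at 233, 175 and 248 in ka120 ndr1. Each ka120 pad4 library was above each library of the other genotypes, and each ka120 and ka120 ndr1 library was below Col-0. TT5, chalcone isomerase, was at 31.6, 28.3 and 29.6 CPM in Col-0, at 22.5, 20.2 and 28.3 in ka120, at 37.2, 32.0 and 36.4 in ka120 pad4, and at 25.01, 22.3 and 25.6 in ka120 ndr1. Its ka120 pad4 libraries were again above all others, and ka120 replicate 3 lay at the lower edge of the Col-0 range. F3H, flavanone 3-hydroxylase, was at 93.1, 78.6 and 86.5 CPM in Col-0, at 68.8, 67.7 and 69.5 in ka120, at 137, 113 and 159 in ka120 pad4, and at 84.7, 62.3 and 81.0 in ka120 ndr1. Its ka120 libraries lay closest together, for their level, of any group of the 10 genes (SD 0.909 CPM) and all below Col-0, while ka120 ndr1 overlapped both.

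TT7, the flavonoid 3′-hydroxylase, was at 9.07, 8.72 and 12.8 CPM in Col-0, at 7.79, 8.90 and 13.6 in ka120, at 18.5, 13.1 and 20.6 in ka120 pad4, and at 10.3, 4.96 and 7.98 in ka120 ndr1. The ka120 range enclosed that of Col-0 and reached the lowest ka120 pad4 library. FLS1, the main flavonol synthase of Arabidopsis, was at 61.0, 54.0 and 60.5 CPM in Col-0, at 63.5, 62.1 and 39.6 in ka120, at 95.6, 88.0 and 104 in ka120 pad4, and at 68.5, 52.8 and 73.0 in ka120 ndr1. Here ka120 pad4 stood above all other libraries and the other 3 genotypes overlapped, with ka120 replicate 3 the lowest of the 12.

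DFR, dihydroflavonol reductase, was at 40.7, 33.9 and 34.8 CPM in Col-0, at 31.6, 32.5 and 45.3 in ka120, at 55.6, 52.4 and 66.8 in ka120 pad4, and at 30.3, 20.9 and 27.9 in ka120 ndr1. All ka120 ndr1 libraries were below, and all ka120 pad4 libraries above, those of the other genotypes. LDOX, the anthocyanidin synthase, was at 41.9, 36.9 and 39.6 CPM in Col-0, at 46.2, 48.4 and 66.5 in ka120, at 84.9, 78.2 and 87.9 in ka120 pad4, and at 49.4, 26.9 and 42.9 in ka120 ndr1. It was the enzyme gene whose 3 ka120 libraries all lay above Col-0. UF3GT, the transferase that adds xylose to the anthocyanin 3-glucoside, was at 6.12, 6.68 and 7.03 CPM in Col-0, at 2.70, 3.13 and 5.57 in ka120, at 4.29, 4.42 and 5.79 in ka120 pad4, and at 3.24, 2.11 and 3.33 in ka120 ndr1. Every mutant library was below every Col-0 library, which held for no other member.

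UGT75C1, the anthocyanin 5-O-glucosyltransferase, was at 15.9, 13.9 and 16.5 CPM in Col-0, at 9.89, 11.3 and 16.2 in ka120, at 19.1, 16.9 and 21.2 in ka120 pad4, and at 11.6, 5.92 and 9.68 in ka120 ndr1. Its ka120 ndr1 libraries were all below Col-0 and its ka120 libraries spread across both. TT19, the glutathione transferase of the vacuolar step, was at 17.7, 18.4 and 15.0 CPM in Col-0, at 16.3, 15.8 and 22.9 in ka120, at 29.1, 30.9 and 32.4 in ka120 pad4, and at 22.2, 17.2 and 16.2 in ka120 ndr1. The ka120 pad4 libraries stood clear of the other 9, which overlapped. By mean, ka120 pad4 was the highest genotype for 9 of the 10 genes and Col-0 for UF3GT, and the lowest was ka120 ndr1 for 5, ka120 for 3 and Col-0 for 2.

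In each genotype, Col-0 included, a single library was high or low for most members. Replicate 3 of ka120 was the highest of its group for 9 of the 10 genes and the lowest for FLS1. Replicate 2 of ka120 ndr1 was the lowest of its group for 9, with TT19 the exception, and replicate 2 of ka120 pad4 was the lowest for 8. Replicate 3 of ka120 pad4 was the highest for 9, with TT5 the exception. In Col-0 the highest library was replicate 1 for 5 genes, replicate 3 for 4 and replicate 2 for 1. Replicate 2 of Col-0 was the lowest for 7, with TT4, TT19 and UF3GT the exceptions. Over all 12 libraries, the correlation of the deviations of FLS1 from the genotype means with those of the other 9 genes had a median of -0.03 (from -0.54 to 0.52). In the 36 pairs without FLS1 it was 0.75 (from 0.21 to 0.98), and both are descriptions. In Col-0, ka120 pad4 and ka120 ndr1, FLS1 was lowest in replicate 2, like most members. It departed from them in ka120 replicate 3, at 39.6 CPM against 63.5 and 62.1. How far the median rests on that library was not tested. The PAD4 transcript was also lowest in ka120 replicate 3, at 54.6 CPM against 94.0 and 107 in the other ka120 libraries. Its part in the levels of the enzyme genes was not tested.

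Per kilobase of exon in the longest annotated transcript, TT4 was the most abundant member in Col-0, at 183 ± 4.65 CPM per kb (SD, n = 3), ahead of F3H at 57.1 ± 4.82 and FLS1 at 38.6 ± 2.59. LDOX (28.2 ± 1.81), TT5 (26.8 ± 1.49) and DFR (24.0 ± 2.43) followed, and the ranges of LDOX and TT5, and of TT5 and DFR, overlapped. TT19 (15.6 ± 1.63), UGT75C1 (9.36 ± 0.81), TT7 (5.28 ± 1.16) and UF3GT (4.003 ± 0.28) closed the order without overlap between neighbours. TT4, F3H, TT19, UGT75C1, TT7 and UF3GT held the same places in all 4 genotypes. LDOX came after FLS1 in Col-0 and before it in ka120, at 38.4 ± 7.95 CPM per kb, where its range overlapped those of F3H and FLS1.

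The first comparison, ka120 against Col-0, addressed the loss of KA120. TT5 fell by 20.7%, F3H fell by 20.2% and UF3GT fell by 42.5%, and the other 7 enzyme genes did not pass the threshold of an adjusted p under 0.05. The log2 change was -0.33 ± 0.11 for TT5 (approximate SE, edgeR quasi-likelihood F test, Benjamini-Hochberg adjusted p = 0.0258), -0.33 ± 0.13 for F3H (adjusted p = 0.0472) and -0.80 ± 0.26 for UF3GT (adjusted p = 0.0188). TT4 was at -0.39 ± 0.16 (adjusted p = 0.0502) and LDOX at 0.44 ± 0.19 (adjusted p = 0.0613), just outside the threshold on opposite sides. DFR, TT7, FLS1 and TT19 lay between -0.09 and 0.11, and UGT75C1 was at -0.31 ± 0.22 (adjusted p = 0.257). The 3 calls of 10 compare with 54.9% of all genes tested called in either direction, 28.0% higher and 27.0% lower, so the calls were fewer than the background in either direction and near it for lower levels. Libraries did not overlap for 4 of the 10 genes (TT4, F3H, LDOX and UF3GT), against 63.3% of all genes. The median of the 10 log2 changes was -0.20, against 0.02 for all genes.

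These calls depended on single libraries and on the scaling. Without ka120 replicate 1 the single call was in the other direction, LDOX at 0.55 (edgeR adjusted p = 0.0450). The number called was 0 without Col-0 replicate 3 or ka120 replicate 2, 1 without Col-0 replicate 1 (UF3GT, lower), and 5 without ka120 ndr1 replicate 2. With total counts in place of TMM scaling, which moved the median of all genes to 0.35, 2 members were called, LDOX at 0.77 and TT19 at 0.43, both higher, and 0 lower. DESeq2 called 5, the same 3 with TT4 lower and LDOX higher (log2 change 0.45, adjusted p = 0.0259).

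In ka120 pad4 against ka120, which asked what the loss of PAD4 changed in the ka120 background, 4 of the 5 early and 3 of the 5 late steps rose. TT4 rose 1.78-fold, TT5 1.49-fold, F3H 1.98-fold and FLS1 1.74-fold among the early steps, and DFR rose 1.60-fold, LDOX 1.56-fold and TT19 1.68-fold among the late ones. The log2 changes were 0.83 ± 0.16 for TT4 (edgeR adjusted p = 0.00450), 0.57 ± 0.11 for TT5 (adjusted p = 0.00577), 0.99 ± 0.13 for F3H (adjusted p = 0.00107) and 0.80 ± 0.16 for FLS1 (adjusted p = 0.00630). They were 0.68 ± 0.16 for DFR (adjusted p = 0.0132), 0.64 ± 0.19 for LDOX (adjusted p = 0.0332) and 0.75 ± 0.15 for TT19 (adjusted p = 0.00611). TT7 at 0.78 ± 0.27 (adjusted p = 0.0675), UGT75C1 at 0.62 ± 0.22 (adjusted p = 0.0721) and UF3GT at 0.35 ± 0.26 (adjusted p = 0.402) did not pass. The 7 of 10 called higher compare with 9.83% of all genes called higher, 8.39% lower and 18.2% in either direction. The libraries of the groups did not overlap for 8 of the 10, TT7 and UF3GT being the exceptions, against 33.3% of all genes. The median log2 change of the 10 was 0.71, against 0.00 for all genes.

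TT4, TT5, F3H, FLS1 and TT19 stayed called under all 21 alternative settings tried, left-out libraries included. DFR lost its call without ka120 replicate 1, ka120 replicate 2 or ka120 pad4 replicate 3 (adjusted p from 0.0596 to 0.0656), and LDOX lost it without any one of these or ka120 pad4 replicate 1 (0.0847 to 0.130) and with total counts (0.0504). Without ka120 replicate 3, all 10 genes were called higher. DESeq2 also called TT7 (adjusted p = 0.0208) and UGT75C1 (adjusted p = 0.0291).

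**Figure D2:**
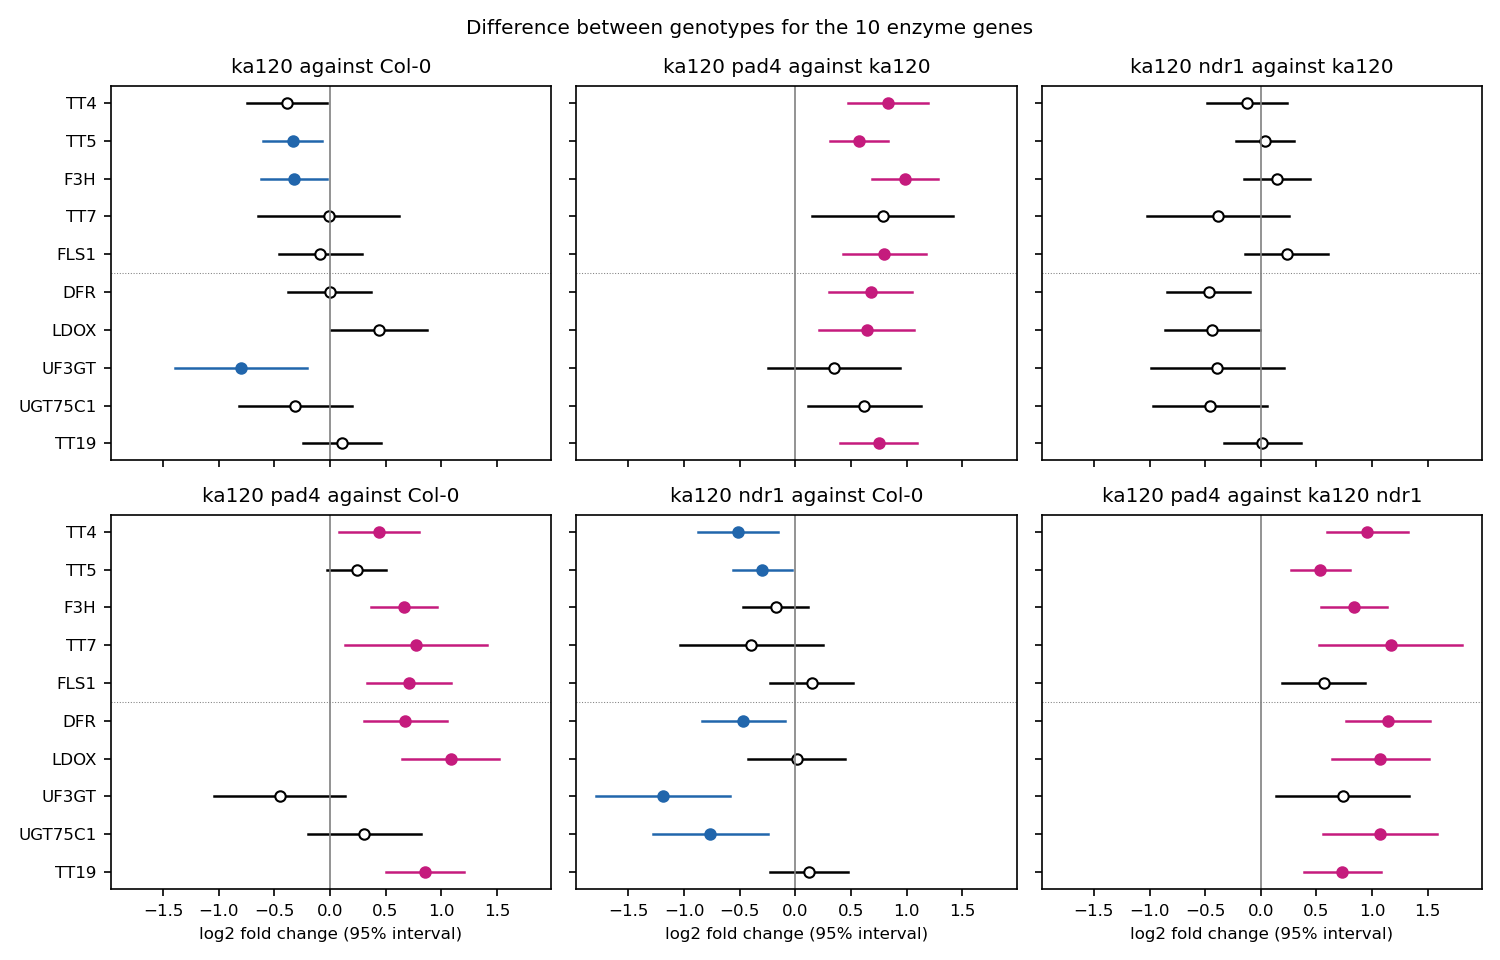
Log2 fold change of each enzyme gene with its 95% interval in the 6 comparisons of genotypes; filled points passed an adjusted p under 0.05 in edgeR (magenta higher, blue lower), and open points did not. The dotted line separates early steps (above) from late steps. In ka120 pad4 against ka120 and against ka120 ndr1 all 10 points lie above 0, and 7 and 8 of them are filled.

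The comparison of ka120 ndr1 with ka120 asked the same for NDR1, and it used the same ka120 libraries. In edgeR 0 of the 10 enzyme genes passed, with 2 at an unadjusted p under 0.05, where 5.94% of all genes were called (3.20% higher and 2.74% lower). The early steps lay on both sides of 0, from TT7 at -0.38 ± 0.28 to FLS1 at 0.23 ± 0.16. DFR at -0.47 ± 0.16 (adjusted p = 0.106), LDOX at -0.43 ± 0.19 (adjusted p = 0.185), UF3GT at -0.39 ± 0.26 and UGT75C1 at -0.45 ± 0.22 were negative, and TT19 was at 0.01 ± 0.15. The 95% intervals reached from -0.84 to -0.10 for DFR and from -0.87 to 0.00 for LDOX, so changes of that size are not excluded by these libraries. DFR alone had libraries that did not overlap, against 29.4% of all genes, and DESeq2 called 1 of the 10, DFR at -0.48 (adjusted p = 0.0334).

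The double mutants were then set against each other, which tests whether the change with pad4 differed from that with ndr1. Here 8 of the 10 enzyme genes were higher in ka120 pad4, against 1.51% of all genes called higher, 0.886% lower and 2.39% in either direction. Among the early steps TT4 was 1.94-fold higher (log2 0.96 ± 0.16, edgeR adjusted p = 0.0101), TT5 1.45-fold (0.54 ± 0.11, adjusted p = 0.0346), F3H 1.79-fold (0.84 ± 0.13, adjusted p = 0.00780) and TT7 2.25-fold (1.17 ± 0.28, adjusted p = 0.0499). Among the late steps DFR was 2.21-fold higher (1.14 ± 0.16, adjusted p = 0.00622), LDOX 2.10-fold (1.07 ± 0.19, adjusted p = 0.0141), UGT75C1 2.10-fold (1.07 ± 0.22, adjusted p = 0.0305) and TT19 1.66-fold (0.73 ± 0.15, adjusted p = 0.0295). FLS1 at 0.56 ± 0.16 (adjusted p = 0.0915) and UF3GT at 0.74 ± 0.26 (adjusted p = 0.155) did not pass, though the libraries of the 2 groups did not overlap for any of the 10 genes, against 21.7% of all genes. The median was 0.84 for the early and 1.07 for the late steps, against 0.00 for all genes.

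The number called rested on the libraries entered. It was 5 without ka120 pad4 replicate 1, 3 without ka120 pad4 replicate 3, and 4 without ka120 ndr1 replicate 2 or replicate 3. Calls among all genes fell in the same fits, from 535 to 366, 150, 152 and 306 in that order. In a fit of these 2 groups alone 1 enzyme gene was called, DFR, with 76 calls among all genes. DFR kept its call under all 21 alternatives, and TT7 lost its call under 12 of them.

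The double mutants were also compared with Col-0. In ka120 pad4, TT4 (log2 0.44 ± 0.16, edgeR adjusted p = 0.0373), F3H (0.66 ± 0.13, adjusted p = 0.00131), TT7 (0.77 ± 0.28, adjusted p = 0.0401) and FLS1 (0.71 ± 0.16, adjusted p = 0.00392) rose. So did DFR (0.67 ± 0.16, adjusted p = 0.00519), LDOX (1.08 ± 0.19, adjusted p = 0.000627) and TT19 (0.85 ± 0.15, adjusted p = 0.000734). That made 7 of 10, against 21.6% of all genes called higher, 20.3% lower and 42.0% in either direction. The 2.12-fold rise of LDOX was the largest of the 10. TT5 at 0.24 ± 0.11 (adjusted p = 0.113), UGT75C1 at 0.31 ± 0.22 (adjusted p = 0.288) and UF3GT at -0.45 ± 0.26 (adjusted p = 0.177) did not pass. Libraries did not overlap for any of the 10, 9 higher and UF3GT lower, against 51.9% of all genes. TT4 lost its call without any single Col-0 library, ka120 pad4 replicate 1 or ka120 pad4 replicate 3, and TT7 without Col-0 replicate 1 or 2, ka120 pad4 replicate 1 or 3, or ka120 ndr1 replicate 3.

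In ka120 ndr1 against Col-0, 5 of the 10 fell, against 23.5% of all genes called lower, 24.9% higher and 48.4% in either direction. UF3GT fell by 56.1% (log2 -1.19 ± 0.26, edgeR adjusted p = 0.00235), UGT75C1 fell by 41.1% (-0.76 ± 0.22, adjusted p = 0.0132) and TT4 fell by 30.01% (-0.51 ± 0.16, adjusted p = 0.0160). DFR (-0.47 ± 0.16, adjusted p = 0.0306) and TT5 (-0.30 ± 0.11, adjusted p = 0.0485) also fell, while LDOX at 0.01, TT19 at 0.12, FLS1 at 0.15, F3H at -0.18 and TT7 at -0.40 did not pass. Libraries did not overlap for 5 of the 10 genes, against 58.5% of all genes. The number called was 3 without Col-0 replicate 1 and 2 without ka120 ndr1 replicate 2. TT5 lost its call under 11 of the 21 alternatives. With total counts, which moved the median of all genes to 0.30, the number called was 3, with FLS1 and TT19 higher and UF3GT lower.

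Early and late steps were compared within each library. Scaling between libraries drops out of their shares and ratios, but not of the summed CPM given first. The summed early steps were at 485 to 508 CPM in Col-0, 367 to 442 in ka120, 589.9 to 797 in ka120 pad4 and 318 to 436 in ka120 ndr1. The summed late steps were at 109.8 to 122, 107 to 156, 183 to 214 and 73.0 to 117 CPM in the same order. The late steps made up 18.2% to 19.7% of the sum in Col-0, 22.0% to 26.2% in ka120, 20.7% to 23.7% in ka120 pad4 and 18.7% to 21.7% in ka120 ndr1. In both ka120 and ka120 pad4 every library was above Col-0 by this share. The mean of the late log2 levels minus that of the early ones, which gives each gene equal weight, was -1.49 ± 0.08 (SD, n = 3, on log2 of CPM + 0.5) in Col-0, -1.37 ± 0.24 in ka120, -1.55 ± 0.13 in the pad4 double mutant and -1.69 ± 0.09 in the ndr1 double mutant. By that measure the Col-0 range overlapped that of every mutant. With 3 libraries a group, no exact 2-sided permutation test between 2 genotypes could pass 0.05. Thus ka120 and ka120 pad4 separated from Col-0 by the share of summed levels, in which TT4 weighs most, and not by the mean of log2 levels.

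Ratios between single enzyme genes, chosen after their values were seen, varied more than that average. LDOX over UF3GT was 5.53 to 6.85 in Col-0, 11.9 to 17.1 in ka120, 15.2 to 19.8 in ka120 pad4 and 12.8 to 15.2 in ka120 ndr1. No mutant library overlapped Col-0. LDOX over DFR was 1.03 to 1.14 in Col-0 and 1.28 to 1.63 across the 9 mutant libraries, again without overlap. DFR over FLS1, the reductase against the flavonol synthase at the branch point, was 0.576 to 0.668 in Col-0, 0.582 to 0.643 in ka120 pad4 and 0.382 to 0.442 in ka120 ndr1. In ka120 it was 0.497, 0.524 and 1.14, the last in replicate 3, the library with the lowest FLS1 and the highest ka120 level of DFR. All ka120 ndr1 libraries were below all others in this ratio.

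**Figure D3:**
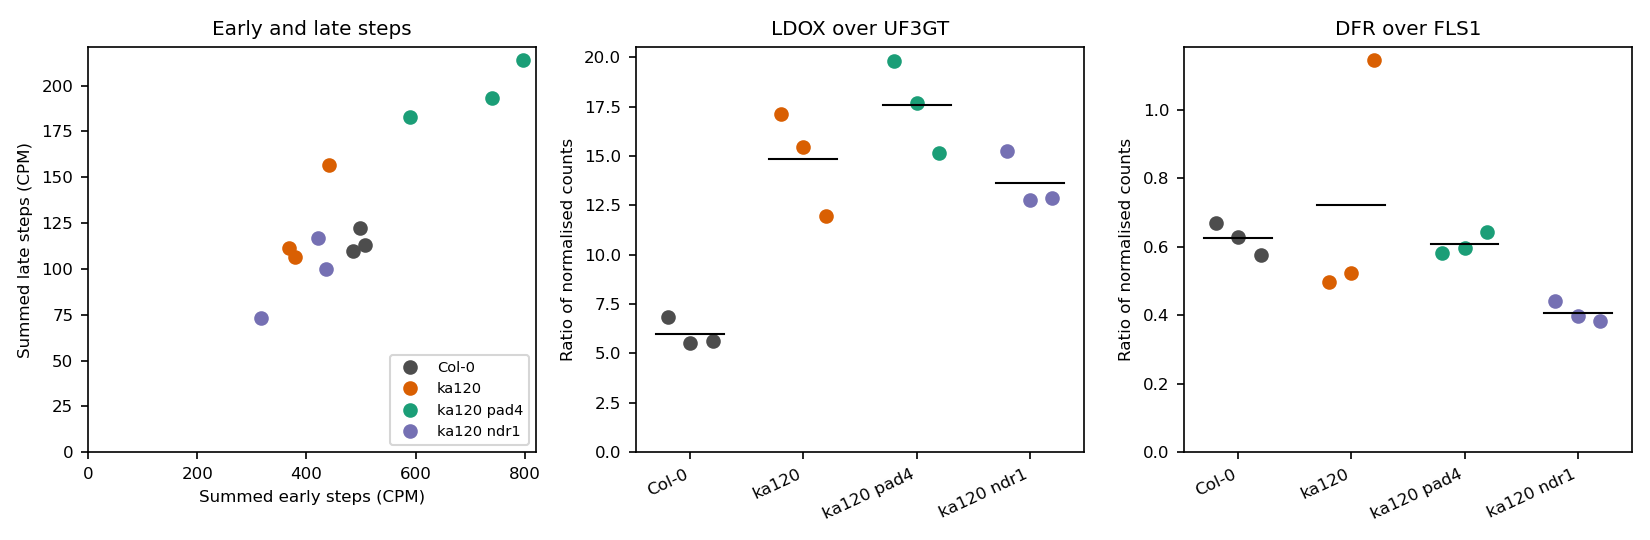
Left, summed CPM of the 5 late steps against that of the 5 early steps, 1 point per library; middle and right, the ratios LDOX over UF3GT and DFR over FLS1 per library with the mean as a line (all axes linear, from 0). LDOX over UF3GT is 5.53 to 6.85 in Col-0 and 11.9 or more in every mutant library, and DFR over FLS1 is lowest in ka120 ndr1.

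The other genes of the pathway are read against the shares over all genes, 28.0% higher and 27.0% lower in ka120 against Col-0 and 9.83% higher and 8.39% lower in ka120 pad4 against ka120. Upstream of the enzymes, 5 of 9 general phenylpropanoid genes fell in ka120 against Col-0 and 0 rose, beside 27.0% lower over all genes. They were PAL1 (-0.59), PAL2 (-0.61) and PAL3 (-1.45), which make cinnamate from phenylalanine, and the coumarate CoA ligases 4CL1 (-0.67) and 4CL3 (-0.60). In ka120 pad4 against ka120, 4CL3 (0.86), PAL3 (0.81), PAL1 (0.50) and PAL2 (0.44) rose and 0 of the 9 fell. The competing lignin and sinapate branch, 11 genes, had 4 higher and 4 lower in ka120 against Col-0, near the shares over all genes in each direction, with the largest changes in CCR2 of lignin synthesis (1.61), SNG1 of sinapoylmalate synthesis (-1.38), HCT (-0.57) and FAH1 (-0.57). It had 2 higher in ka120 pad4 against ka120, against 9.83% over all genes, where its median was 0.14, beside 0.80 for the early and 0.64 for the late enzyme genes.

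Of 7 genes that decorate flavonols, the rhamnose synthase RHM1 rose (0.34) in ka120 against Col-0, and the methyltransferase OMT1 (-1.08) and the rhamnosyltransferase UGT78D1 (-0.37) fell. In ka120 pad4 against ka120, 4 of them rose and all 7 were positive, with a median of 0.40. Of 5 genes that decorate anthocyanins, the acyltransferase 3AT1 (0.52) and the glucosyltransferase BGLU10 (1.08) rose and SCPL10 (-1.43) fell in ka120 against Col-0. In ka120 pad4 against ka120, SCPL10 rose (0.80) and BGLU10 fell (-0.50, edgeR adjusted p = 0.00758). Against ka120 ndr1, ka120 pad4 had 3 of these 5 higher, 3AT1 at 1.11, 3AT2 at 0.93 and SCPL10 at 0.52. Of all genes, 1.51% were called higher and 0.886% lower in that comparison. CHIL, a noncatalytic relative of chalcone isomerase that assists chalcone synthase, rose with the enzymes at 0.92 ± 0.14 in ka120 pad4 against ka120 (edgeR adjusted p = 0.00170). Of the 6 paralogs listed 3 were tested, with a median of -0.29 and a lowest value of -0.71 in that comparison. FLS2 averaged 0.948 CPM in ka120 and 0.579 in ka120 pad4, and FLS3 1.03 and 0.843. Neither was called there. Of 5 proanthocyanidin genes of the seed coat 3 were tested, and 0 were called in these comparisons of ka120 with Col-0 and ka120 pad4 with ka120.

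Among regulators, 3 of the 7 tested genes of the MYB, bHLH and WD40 complex rose in ka120 against Col-0 (MYB90, PAP1 and, at 0.33, TTG1) and 1 fell (the bHLH gene GL3, at -0.63). With 54.9% of all genes called, 4 called of 7 is near the background. MYB90, which activates the late genes, averaged 0.504 ± 0.203 CPM (SD, n = 3) in Col-0, 4.03 ± 0.94 in ka120 and 6.03 ± 2.79 with pad4 added, and 0.974 ± 0.445 with ndr1 added. Its log2 change was 2.99 in ka120 against Col-0, and it was lower in ka120 ndr1 than in ka120 at -2.04 ± 0.41 (edgeR adjusted p = 0.0187). PAP1, its close relative, was at 3.48 ± 0.57, 7.88 ± 0.53, 12.2 ± 5.90 and 4.65 ± 1.84 CPM in the same order, and rose by 1.18 in ka120 against Col-0. Both were higher in ka120 pad4 than in ka120 ndr1, MYB90 at 2.62 ± 0.42 (adjusted p = 0.00903) and PAP1 at 1.39 ± 0.33 (adjusted p = 0.0495). In ka120 pad4 against ka120 neither passed (0.58 for MYB90 and 0.63 for PAP1), while TTG1 fell, at -0.26. MYB90 and PAP1 are similar in sequence, so the division of reads between them is uncertain. MYB111 of the early-gene activators rose at 0.97 in ka120 against Col-0, and 0 of the 3 were called in ka120 pad4 against ka120.

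Of 7 repressors of the pathway, 5 fell and 0 rose in ka120 against Col-0, where 27.0% of all genes fell. They were MYBL2 (-1.51), SPL9 (-0.89), LBD39 (-0.63), LBD38 (-0.59) and MYB4 (-0.43). MYBL2 averaged 32.7 ± 5.40 CPM (SD, n = 3) in Col-0, 11.5 ± 2.59 in ka120, 6.74 ± 0.46 with pad4 added and 5.56 ± 3.15 with ndr1 added. Its change in ka120 pad4 against ka120 was -0.76 ± 0.29 (edgeR adjusted p = 0.0947). Of 8 light-signalling genes, HY5 (0.48) and HYH (0.15) rose and RUP2 (-0.72), UVR8 (-0.57) and COP1 (-0.56) fell in ka120 against Col-0, near the 28.0% higher and 27.0% lower of all genes, and 0 were called in ka120 pad4 against ka120.

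**Figure D4:**
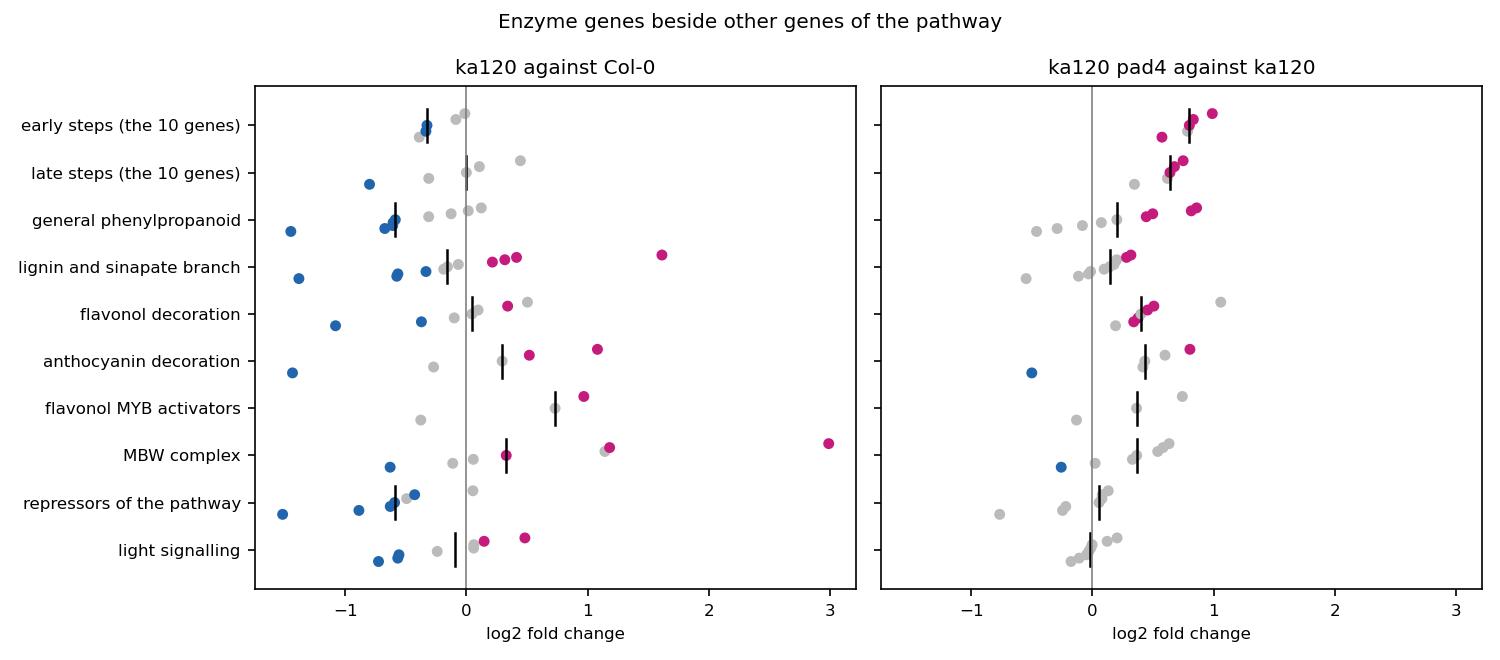
Log2 fold change of each tested gene in the enzyme groups and in other groups of the pathway, in ka120 against Col-0 (left) and ka120 pad4 against ka120 (right); magenta and blue points passed an adjusted p under 0.05 (higher, lower), grey did not, and the black bar is the median of the group. On the right the medians of the early and late enzyme genes, 0.80 and 0.64, are above those of the other groups plotted.

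The genes whose levels were most like those of the enzymes were found by Pearson correlation of log2(CPM + 0.5) over the 12 libraries among 18520 genes with a mean of at least 1 CPM. These libraries fall into 4 genotypes, so the values are descriptions. Most like the early steps were AT3G51238 (r = 0.96), the partner of F3H on the opposite strand, CHIL (0.95), MTO3 (0.94), ASPGB1 (0.94) and AT4G27560 (0.94). MTO3 encodes an S-adenosylmethionine synthetase and ASPGB1 an asparaginase. Most like the late steps were ASPGB1 (0.96), TT8 (0.95), AT3G28270 (0.91), AT5MAT (0.90) and AT4G27560 (0.89). TT8 is the bHLH of the anthocyanin complex and AT5MAT an anthocyanin malonyltransferase. TT8 averaged 2.99 ± 0.28 CPM (SD, n = 3) in Col-0, 3.11 ± 0.94 in ka120, 4.51 ± 1.25 with pad4 added and 2.44 ± 0.70 with ndr1 added.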

How the data were processed

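The authors deposited a table of expected counts, that is, an estimated count for each gene in each library; its values were whole, so no rounding was needed, and between 45.7% and 48.1% of values from 4 to 40 were multiples of 4, against 25% by chance. The submitters' processing notes name HISAT2 2.0.4, HTSeq 0.6.1p1 and TAIR10 without their roles. A second table the authors deposited holds log2 values of 22605 genes, each equal to the log2 of the count plus 0.5 over a constant per library. Counts were tested in R 4.3.3 with edgeR 4.0.16 (quasi-likelihood F test, TMM factors, default filter on low counts) in 1 model of 12 libraries with 8 residual degrees of freedom, and p-values were adjusted over all 22351 genes in each of 6 comparisons. The approximate SE is the absolute log2 change divided by the root of F. Alternatives used DESeq2 1.42.0, limma 3.58.1 on the authors' log2 table, other scalings, filters and left-out libraries. The code was tested on simulated data. From each other list of the pathway, up to 4 called genes with the largest change in ka120 against Col-0 are named, with the 5 genes most alike to each class; further names were chosen after their values were seen. The members and lists were chosen with earlier results of these data known. Replicate numbers were not used to pair the samples in the main model, and whether same-numbered libraries shared handling is not known here. Libraries of a genotype differed by more than sampling noise (chi-square per degree of freedom of 22.9 to 78.5), so none was counted as a duplicate. Symbols, coordinates and promoters came from the TAIR10.1 reference.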

Additional observations from a re-analysis of the deposited data

Results flagged for a closer look

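For 8 of the 10 enzyme genes, the change with pad4 in ka120 differed from the change with ndr1, by the test of ka120 pad4 against ka120 ndr1 in edgeR. Of all genes, 2.39% were called in this comparison. The log2 difference was 0.96 for TT4 (0.83 with pad4 and -0.13 with ndr1), 0.54 for TT5 (0.57 and 0.04), 0.84 for F3H (0.99 and 0.15) and 1.17 for TT7 (0.78 and -0.38). It was 1.14 for DFR (0.68 and -0.47), 1.07 for LDOX (0.64 and -0.43), 1.07 for UGT75C1 (0.62 and -0.45) and 0.73 for TT19 (0.75 and 0.01). For each of these genes all 3 ka120 pad4 libraries were above all 3 ka120 ndr1 libraries, where 21.7% of all genes did not overlap. The changes within each double mutant share the ka120 libraries, which cancel in the difference. For TT4, TT7, DFR, LDOX and UGT75C1 the values for pad4 and ndr1 had opposite signs. None of the ndr1 values passed the threshold in edgeR, and those with pad4 did not pass for TT7 and UGT75C1. The count of 8 depended on the libraries entered: it was 3 to 9 with single libraries left out. In a fit of the double mutants alone it was 1 (DFR). TT7 lost its call under 12 of the 21 alternatives.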

How the results depend on the processing

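Of 60 gene and comparison results, 30 passed, 12 of them kept their call under all 21 alternatives, and 1 passed result changed sign anywhere. In ka120 against Col-0, changes near 0 turned direction, and with total counts so did F3H and UGT75C1, at -0.33 and -0.31 in the main fit. DFR was at 0.0034 with DESeq2 size factors, 0.0063 with DESeq2, 0.0074 without a filter, 0.0038 with a mean of at least 1 CPM, 0.0037 with only the groups compared, and 0.0055 with counts divided by 4, an alternative chosen after seeing the data. With total counts DFR was at 0.32, F3H at 0.0025, TT7 at 0.31, FLS1 at 0.24 and UGT75C1 at 0.014, while the median of all genes moved to 0.35 there, 0.27 in ka120 pad4 and 0.30 in ka120 ndr1 against Col-0. In ka120 ndr1, total counts gave TT5 at -0.0042 and TT19 at -0.027 against ka120 and F3H at 0.10 against Col-0, and LDOX against Col-0 was at -0.035 in the authors' log2 table. The cause was not tested.

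The number of enzyme genes called in ka120 against Col-0 was 5 with DESeq2 and with only the groups compared, in ka120 ndr1 against ka120 1 with DESeq2, in ka120 ndr1 against Col-0 3 with total counts, and in ka120 pad4 against ka120 ndr1 1 with only the groups compared. Leaving out libraries one at a time gave 0 to 5 calls in ka120 against Col-0, 5 to 10 in ka120 pad4 against ka120, 0 in ka120 ndr1 against ka120, 5 to 8 in ka120 pad4 against Col-0, 2 to 5 in ka120 ndr1 against Col-0 and 3 to 9 in ka120 pad4 against ka120 ndr1. The same left-out libraries gave, in ka120 against Col-0, -0.28 to 0.18 for TT7, -0.20 to 0.11 for FLS1, -0.18 to 0.097 for DFR and -0.075 to 0.21 for TT19. In ka120 ndr1 against ka120 they gave -0.23 to 0.035 for TT4, -0.067 to 0.18 for TT5 and -0.14 to 0.20 for TT19, and against Col-0 -0.17 to 0.23 for LDOX and -0.025 to 0.21 for TT19. The late minus early value was -2.11, -1.68, -1.84 and -2.03 from summed CPM and -2.24, -2.05, -2.21 and -2.46 with TT7 among the late steps (Col-0, ka120, ka120 pad4, ka120 ndr1).

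Same-numbered libraries of different genotypes deviated together with correlations from -0.11 to 0.24 over 18 pairs, 4 of them over 0.1, and 5 of 12 libraries correlated best with their own number. Among those over 0.1 were replicate 2 of ka120 with ka120 pad4 (0.19) and with ka120 ndr1 (0.14). The rest were replicates 1 (0.15) and 2 (0.24) of ka120 pad4 with ka120 ndr1. With the replicate block, 5 enzyme genes were called in ka120 against Col-0 (TT4 and LDOX added). In that fit 12168 of all genes were called, beside 12276 (54.9%) in the main model. The block gave 9 calls in ka120 pad4 against ka120 (TT7 and UGT75C1 added, edgeR adjusted p = 0.0216 and 0.0350). It gave 8 in ka120 pad4 against Col-0 (TT5 added). The main model called 18.2% and 42.0% of all genes in these 2 comparisons. LDOX in ka120 ndr1 against Col-0 was at -0.016 with the block. The 95% intervals were built from the approximate SE of a difference between genotypes, in the model of all 12 libraries with 8 residual degrees of freedom. With 3 libraries per genotype, UF3GT, with as few as 152 counts in a library, had wide ones.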
